A study of Sus scrofa with 189 samples.

Results

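Longissimus dorsi muscle of Duroc × Luchuan F1 pigs was compared between animals whose sample titles start with DLC15 and animals whose titles start with DLC16. The rule kept only titles without the mark "(re-analyzed)", with a fat value recorded or not, which gave 58 DLC15 and 110 DLC16 libraries, 168 of the 189 in the series. The digits after DLC were read as a date. They run from 31 October 2015 to 31 December 2015 in the 58 and from 1 January 2016 to 11 February 2016 in the 110, so the contrast is between animals of late 2015 and of early 2016. What event the date records is not stated, nor is any batch, sex or parentage of the animals.

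Both groups share breed cross, muscle, farm, diet and abattoir, and no agent or allele sets them apart. The sires were 8 Duroc boars, and the dams were Luchuan sows, given as 112 in the protocol and as 158 in the design text. Animals were slaughtered at 210 ± 6 days, the muscle was taken 25 min after death at the junction of chest and loin, and polyA RNA was read as 150-bp pairs, with 1 library per pig. Intramuscular fat (IMF; its unit is not stated) was recorded for 51 DLC15 animals at 3.46 ± 0.93 (SD) and for 92 DLC16 animals at 3.28 ± 0.80 (SD). The difference of -0.19 did not pass the permutation test (2-sided, adjusted p = 0.261 over 5 values per library).

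Skeletal muscle fibres hold dense arrays of actin and myosin filaments anchored at Z-discs, and chaperones of the BAG3 and small heat shock protein group keep those anchors in repair under load. Their mitochondria carry a small circular genome that encodes 13 subunits of the respiratory chain, read from both strands; only the ND6 gene lies on the light strand. Lipid reaches the mitochondria through lipolysis of stored droplets and is broken down by acyl-CoA dehydrogenases such as ACADM. These 3 systems hold many of the genes described here.

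The values are FPKM: fragments per length of transcript, scaled to the mapped fragments of the library and summed over the transcripts of a gene. Differences are on the log2(FPKM + 1) scale, DLC16 minus DLC15, so they understate the change of low genes. A gene is called at an adjusted p under 0.05 in limma, with animals of the same 9-digit title code as a block. Where there is no difference, a share of about 0.05 of the tested genes would have an unadjusted p under 0.05. Read depth cannot be read from these values. The muscle fibre markers ACTA1, CKM, MYLPF, TNNT3, MYH7 and MYH4 summed to medians of 56670 and 63730 FPKM in DLC15 and DLC16. The lymphocyte markers CD3E and CD2 together stayed at or under 2.43 FPKM in every library of both groups.

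The libraries stood apart along an axis that the titles do not name. The first principal component of the 168 libraries held 30.6% of the variance. Its mean was 0.32 ± 0.84 (SD) in DLC15 and -0.17 ± 1.04 (SD) in DLC16 (2-sided permutation test, p = 0.00172). That test took single libraries as the unit, though many share a title code, and was not repeated with title code means. ND6 fell into 2 levels: 84 unmarked libraries lay between 76.1 and 497 FPKM and the other 84 between 611 and 1607 FPKM. The limit of 600 FPKM was chosen after these values were seen, and only 2 unmarked libraries lay between 500 and 650 FPKM. Of the DLC15 libraries 20 of 58 (34.5%) were at the low level, and of the DLC16 libraries 64 of 110 (58.2%). Both levels occurred within 31 of the 45 title codes shared by several animals and within 23 of the 31 title dates shared by several animals. Libraries at the low ND6 level had component values from -2.44 to 0.42, and those at the high level from -0.42 to 1.54. In the 21 re-analyzed libraries, which the rule leaves out, 1 of 11 DLC15 and 1 of 10 DLC16 libraries lay under the limit, at 555 and 569 FPKM.

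**Figure D1:**
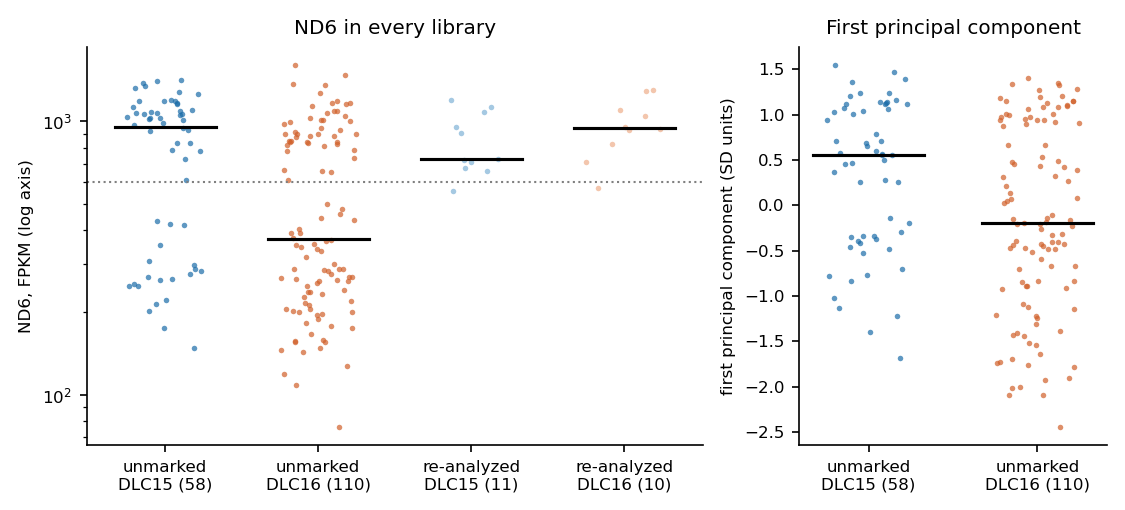
Left, ND6 in FPKM on a log axis for every library of the 4 groups (points, libraries; bars, medians; dotted line, 600 FPKM). Right, the first principal component of the 168 unmarked libraries. ND6 forms an upper and a lower band; the DLC15 median of 956 FPKM lies in the upper band and the DLC16 median of 372 FPKM in the lower band.

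Other library values moved with the title year. Mitochondrially encoded genes held 7.85 ± 2.15% (SD) of summed FPKM in DLC15 and 6.43 ± 2.04% in DLC16 (permutation test, adjusted p = 8.0e-04). The 10 most abundant genes held 32.7 ± 4.25% and 34.5 ± 4.64% (adjusted p = 0.0254), and 9239 ± 349 and 9049 ± 473 genes reached 1 FPKM (adjusted p = 0.0188). With the mean of each title code as the unit, these 3 values stayed past the threshold, at adjusted p = 0.0010, 0.0237 and 0.012. Summed FPKM did not pass, at 414460 ± 15577 and 417400 ± 18336 (adjusted p = 0.300). Library 39, a DLC15 library, had 10614 genes at 1 FPKM against at most 9841 in any other unmarked library. Its median over tested genes was 2.97 on the log2(FPKM + 1) scale, and the others ran from 1.86 to 2.67.

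Across the 10720 genes tested, 1622 passed the test between the title years, 15.1% of all: 187 were higher in DLC16 (1.74%) and 1435 were lower (13.4%). Most of the differences were small. The median size among called genes was 0.24, and 39 called genes differed by at least 0.5, 11 of them higher and 28 lower in DLC16. The excess of lower calls depended on the scale: with every library shifted to the same median, 1016 genes were higher (9.48%) and 804 lower (7.5%), and with quantile normalization 744 (6.94%) and 901 (8.4%). Without library 39 there were 206 higher calls (1.93%) and 1076 lower ones (10.1%). The median difference over all genes was -0.04 as deposited and 0.03 after the median shift. Of the 1622 calls, 991 (61.1%) were kept in the same direction after the median shift and 1082 (66.7%) with quantile normalization. Each of the 88 named genes called here kept its sign under both scalings. Under each scaling 10 of the 88 were no longer called, and ECI1, HIF1A, HLF, HOXA7, MYH2, NBR2, SEPHS1 and VWF were so under both. The median shift raised the higher calls to 9 of 27 chaperones, 10 of 11 macrophage genes, 9 of 33 ribosomal protein genes and 3 of 21 collagen and fibroblast genes; 15 of 26 nuclear oxidative phosphorylation genes were negative before it and 20 of 26 positive after it.

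The call count also moved with the library axis. With the first principal component as a covariate, 2 genes were called, TNFRSF11B and MYLIP, both lower (0.0187%), and 1152 genes had an unadjusted p under 0.05. With the mitochondrial share as a covariate limma called 0 of 10720 genes and 579 had an unadjusted p under 0.05. That is near the share found where there is no difference. With the share of the 10 most abundant genes as a covariate, 17 genes were called (0.159%), and all 17 were among the 1622. The component and the mitochondrial share are computed from the same genes, so such a fit also removes any part of the difference between years that runs along them; how much of the difference belongs to the title year and how much to this axis cannot be told apart here. The first 2 of these covariates were chosen after the data were seen.

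TNFRSF11B, MYLIP and G0S2 were lower in DLC16 and kept their call under more alternatives than the other named genes. TNFRSF11B (chromosome 4, 19869584 to 19878269, Sscrofa11.1) encodes osteoprotegerin, the soluble decoy receptor for RANKL. In DLC15 its lowest, median and highest libraries were at 2.37, 6.41 and 17.7 FPKM, and in DLC16 at 0.55, 4.29 and 11.8 FPKM. The groups overlapped over most of their range, but only 20.0% of the DLC16 libraries lay above the DLC15 median. The difference was -0.55 ± 0.09 (SE; limma, adjusted p = 3.0e-04), a ratio of medians of 0.67. It stayed past the threshold in 17 of 18 alternatives, at -0.39 (adjusted p = 0.037) with the first principal component as a covariate; it was -0.36 (adjusted p = 0.28) with the mitochondrial share as a covariate.

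MYLIP (chromosome 7, 12117240 to 12137926) encodes the ubiquitin ligase IDOL, which is induced by liver X receptors and directs the LDL receptor to degradation. Its lowest, median and highest values were 3.24, 8.88 and 25.9 FPKM in DLC15 and 2.32, 6.05 and 15.1 FPKM in DLC16. Here 18.2% of the DLC16 libraries exceeded the DLC15 median. The difference was -0.44 ± 0.08 (SE; limma, adjusted p = 3.0e-04) and kept its call in 16 of 18 alternatives. The 2 exceptions were the mitochondrial share as a covariate, at -0.34 (adjusted p = 0.25), and title dates within 15 days of the turn of the year, at -0.41 (adjusted p = 0.095).

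G0S2 (chromosome 9, 133287325 to 133287742), the inhibitor of the triglyceride lipase ATGL, had the largest negative difference of the named genes. It ran from 2.95 over a median of 21.7 to 134 FPKM in DLC15 and from 1.16 over 9.69 to 107 FPKM in DLC16. The spread between animals was wide in both groups, and the median of DLC16 was 0.45 times that of DLC15. The difference was -0.97 ± 0.20 (SE; limma, adjusted p = 0.0028), kept in 16 of 18 alternatives. It was -0.65 (adjusted p = 0.77) with the mitochondrial share and -0.75 (adjusted p = 0.11) with the first principal component as a covariate.

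**Figure D2:**
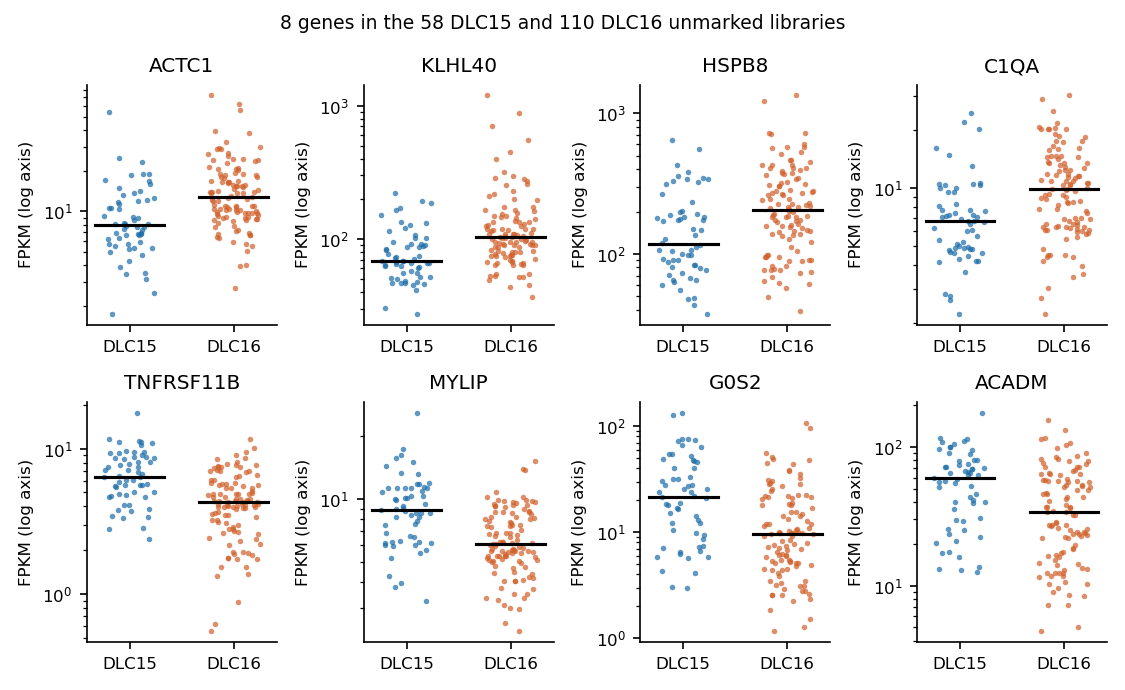
FPKM on log axes of 8 genes in the 58 DLC15 and 110 DLC16 unmarked libraries (points, libraries; bars, medians). ACTC1, KLHL40, HSPB8 and C1QA have higher DLC16 medians, and TNFRSF11B, MYLIP, G0S2 and ACADM lower ones, with wide overlap in every panel.

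Genes of the thin filament, the Z-disc and the response to stretch were among the largest rises. In a list of these genes assembled after values had been seen, 11 of 31 tested members rose and 1 fell, where 1.74% and 13.4% of all genes did, with a median difference of 0.12. The list was built around such genes, so the count is not independent evidence of its direction. ACTC1 (chromosome 1, 136281119 to 136286631), cardiac actin, which fetal and repairing skeletal muscle also make, ran from 1.73 over a median of 7.88 to 54.6 FPKM in DLC15 and from 2.71 over 12.7 to 72.3 FPKM in DLC16. In DLC16 84.5% of libraries lay above the DLC15 median, and the difference was 0.60 ± 0.12 (SE; limma, adjusted p = 0.0028). ACTA1, skeletal actin and the main actin of adult fibres, had medians of 24510 and 29630 FPKM, a difference of 0.28 ± 0.08 (adjusted p = 0.012). The coding parts of these 2 actins are nearly identical, so the split of reads between them is uncertain.

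KLHL40 (chromosome 13, 26202677 to 26208785), a Kelch protein that stabilises the thin filament proteins LMOD3 and nebulin, ran from 27.2 over 68.8 to 221 FPKM in DLC15 and from 36.6 over 103 to 1193 FPKM in DLC16. Its difference was 0.60 ± 0.13 (limma, adjusted p = 0.0050), and 82.7% of DLC16 libraries exceeded the DLC15 median. It shares 3170 bases with HHATL, and reads there cannot be assigned without strand. LMOD3, the thin filament nucleator that KLHL40 stabilises, went the other way, from a median of 162 to 109 FPKM, at -0.48 ± 0.15 (adjusted p = 0.027).

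The other called members of this list rose by less or varied more. XIRP1, an actin-binding protein of the intercalated disc and of damaged fibres, rose by 0.63 ± 0.22 (limma, adjusted p = 0.039) and ANKRD2, a stretch-responsive ankyrin repeat protein, by 0.60 ± 0.21 (adjusted p = 0.043). Each kept its call in 11 of 18 alternatives. Without library 39 the differences were 0.58 for XIRP1 and 0.56 for ANKRD2, with adjusted p of 0.059 and 0.063. FLNC, the muscle filamin of the Z-disc, had medians of 298 and 415 FPKM and rose by 0.46 ± 0.14 (adjusted p = 0.021). MYBPH, a myosin-binding protein, rose by 0.57, the intermediate filament gene NES by 0.39, the LIM protein gene LMCD1 by 0.38, the caveolin CAV3 by 0.23 and the Z-disc protein gene MYOZ3 by 0.21. ANKRD2 and MYBPH overlap other listed genes, so their values carry the same uncertainty as that of KLHL40. With the first principal component as a covariate, 22 of the 31 members had a positive difference, 14 members had an unadjusted p under 0.05, and limma called 0. The contractile genes of slow fibres held no call among 11 tested, and those of fast fibres 1 lower call among 14, MYH2.

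Several chaperones of the Z-disc were higher as well. Of 27 tested members of the heat shock and chaperone list, 5 rose, where 1.74% of all genes did, 0 fell and 22 did not pass, and 19 had a positive difference, where 3684 of all 10720 genes did. HSPB8 (chromosome 14, 33622096 to 33640792), the small heat shock protein that works with BAG3, ran from 37.2 over 118 to 644 FPKM in DLC15 and from 39.2 over 204 to 1340 FPKM in DLC16. Its difference was 0.60 ± 0.16 (SE; limma, adjusted p = 0.014). BAG3 itself rose by 0.42 (adjusted p = 0.023), HSPB7 by 0.46 ± 0.13 (adjusted p = 0.013) and STIP1, the adaptor between HSP70 and HSP90, by 0.33 ± 0.10 (adjusted p = 0.017). HSPB2 rose by 0.33 (adjusted p = 0.017), but it shares 5025 bases with CRYAB. CRYAB, another small heat shock protein, was at medians of 97.8 and 105 FPKM and did not pass, at 0.36 ± 0.33 (adjusted p = 0.47). With the first principal component as a covariate 25 of the 27 members had a positive difference, 13 of them at an unadjusted p under 0.05, and 0 were called by limma.

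Genes of several other kinds were called higher, the 4 named next among the 12 largest rises. TNFRSF12A, the TWEAK receptor, had medians of 53.0 and 87.2 FPKM and rose by 0.67 ± 0.18 (limma, adjusted p = 0.012). AMPD3, the AMP deaminase of red cells and of denervated or regenerating muscle, rose by 0.64 ± 0.20 (adjusted p = 0.025), from a median of 1.74 to 3.98 FPKM, with 0 FPKM listed as the lowest value of both groups. DAPK3, a myosin light chain kinase, rose by 0.58 ± 0.17 and ENHO, the gene of the secreted peptide adropin, by 0.51 ± 0.13. DAPK3 shares 104 bases with EEF2, which rose by 0.30 ± 0.08. MYOG, the factor of terminal myoblast differentiation, rose by 0.19 (limma, adjusted p = 0.044, and 0.061 without library 39). MSTN, the brake on muscle growth, fell by 0.53 (adjusted p = 0.011) and MEF2A fell by 0.41 (adjusted p = 0.024). MYOG, MSTN and MEF2A were the called members among 17 tested of the myogenic and satellite cell list. Thus 1 rose and 2 fell, where 1.74% and 13.4% of all genes did, and 14 did not pass.

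Some macrophage genes were higher in DLC16. Of 11 tested members of the macrophage and lymphocyte list, 5 rose, where 1.74% of all genes did, 0 fell and 6 did not pass. A positive difference was found in 10, with a median of 0.19 where all genes had -0.04. The called members were the 3 chains of complement C1q, with the lysosomal glycoprotein CD68 and the growth factor receptor CSF1R. C1QA (chromosome 6, 80586183 to 80591269) ran from 2.23 over 6.72 to 24.2 FPKM in DLC15 and from 2.24 over 9.82 to 30.0 FPKM in DLC16, a difference of 0.43 ± 0.11 (limma, adjusted p = 0.0091). C1QB rose by 0.40, C1QC by 0.38, CD68 by 0.19 and CSF1R by 0.19 (adjusted p = 0.043), and CD163 did not pass (0.28, adjusted p = 0.089). The summed macrophage markers CD163, CSF1R, C1QA and C1QB ran from 6.49 to 56.9 FPKM in DLC15 and from 7.95 to 65.5 FPKM in DLC16. In bulk muscle, more cells of a type and more RNA per cell cannot be told apart. All 11 members had, with the first principal component as a covariate, a positive difference, 4 of them at an unadjusted p under 0.05, and limma called 0.

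Most mitochondrially encoded genes were lower in DLC16. All 13 had a negative difference, 9 of them called where 13.4% of all genes were called lower, from -0.62 for ND6 to -0.10 for COX3, which did not pass (adjusted p = 0.10). ND6 fell from a median of 956 to 372 FPKM, at -0.62 ± 0.17 (SE, limma, adjusted p = 0.014), and its 2 levels are described above. Within the low level the DLC15 and DLC16 medians were 267 and 253 FPKM, and within the high level 1071 and 908 FPKM. The overall medians thus lie in different levels. ATP6, a subunit of the ATP synthase, ran from 454 over 1989 to 10710 FPKM in DLC15 and from 235 over 1284 to 10150 FPKM in DLC16, at -0.62 ± 0.21 (adjusted p = 0.032). It overlaps ATP8 by 43 bases, and ATP8 had -0.53. COX1, the catalytic subunit of cytochrome oxidase, had medians of 7444 and 6152 FPKM, at -0.27 ± 0.07 (adjusted p = 0.0091). CYTB was at -0.27 ± 0.07 and ND4 at -0.34 ± 0.09. The 26 nuclear genes of oxidative phosphorylation tested held no call, with a median of -0.02. With the first principal component as a covariate 2 of the 13 mitochondrially encoded genes had a positive difference, and their median was -0.12.

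Some enzymes of fatty acid breakdown were lower. Of 22 tested members of the PPAR and fatty acid oxidation list 5 fell, 0 rose and 17 did not pass, where 13.4% of all genes were called lower: DECR1, ACADM, ACADL, ECI1 and CPT1A. After the median shift 3 members were called lower, where 7.5% of all genes were. ACADM (chromosome 6, 137541381 to 137595108), the medium-chain acyl-CoA dehydrogenase, ran from 12.6 over 59.5 to 177 FPKM in DLC15 and from 4.67 over 33.8 to 156 FPKM in DLC16, a difference of -0.62 ± 0.17 (limma, adjusted p = 0.014). ACADL, the long-chain enzyme, was at -0.40 ± 0.12 and DECR1, which handles polyunsaturated chains, at -0.38 ± 0.10. ACADM was at -0.13 (adjusted p = 0.47) with the first principal component as a covariate. ECI1 shares 7656 bases with RNPS1. Of the lipid synthesis genes 2 of 20 fell, a share under the 13.4% of all genes: SREBF1, the sterol and lipid synthesis regulator, by 0.37 ± 0.09 (adjusted p = 0.0091) and malic enzyme ME1 by 0.22 ± 0.06. Adipocyte markers held no call among 14. The summed fat cell markers had medians of 54.5 and 67.1 FPKM, with a DLC15 library at 1351 FPKM where DLC16 reached 190.2 FPKM.

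Some RNA processing genes were lower, and their list turned with the library axis. Of 29 tested members of the spliceosome and RNA binding list 8 fell, 0 rose and 21 did not pass, where 13.4% of all genes were called lower. A negative difference was found in 27 of 29 members and in 7036 of all 10720 genes, and the median of the list was -0.23. They were the kinases CLK1 and CLK4, which phosphorylate splicing factors, and SRSF4, SRSF10, RBM5, RBM25, HNRNPH1 and TRA2A. Without library 39, and also after the median shift, 5 members of this list were called lower. CLK4 ran from 2.24 over 10.0 to 21.5 FPKM in DLC15 and from 1.22 over 6.63 to 14.7 FPKM in DLC16, at -0.42 ± 0.12 (limma, adjusted p = 0.014). With the first principal component as a covariate, the median of this list was 0.03 and 20 of 29 members had a positive difference, so its direction turned. SRSF10 shares 4464 bases with PNRC2, and RBM5 9633 bases with RBM6.

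**Figure D3:**
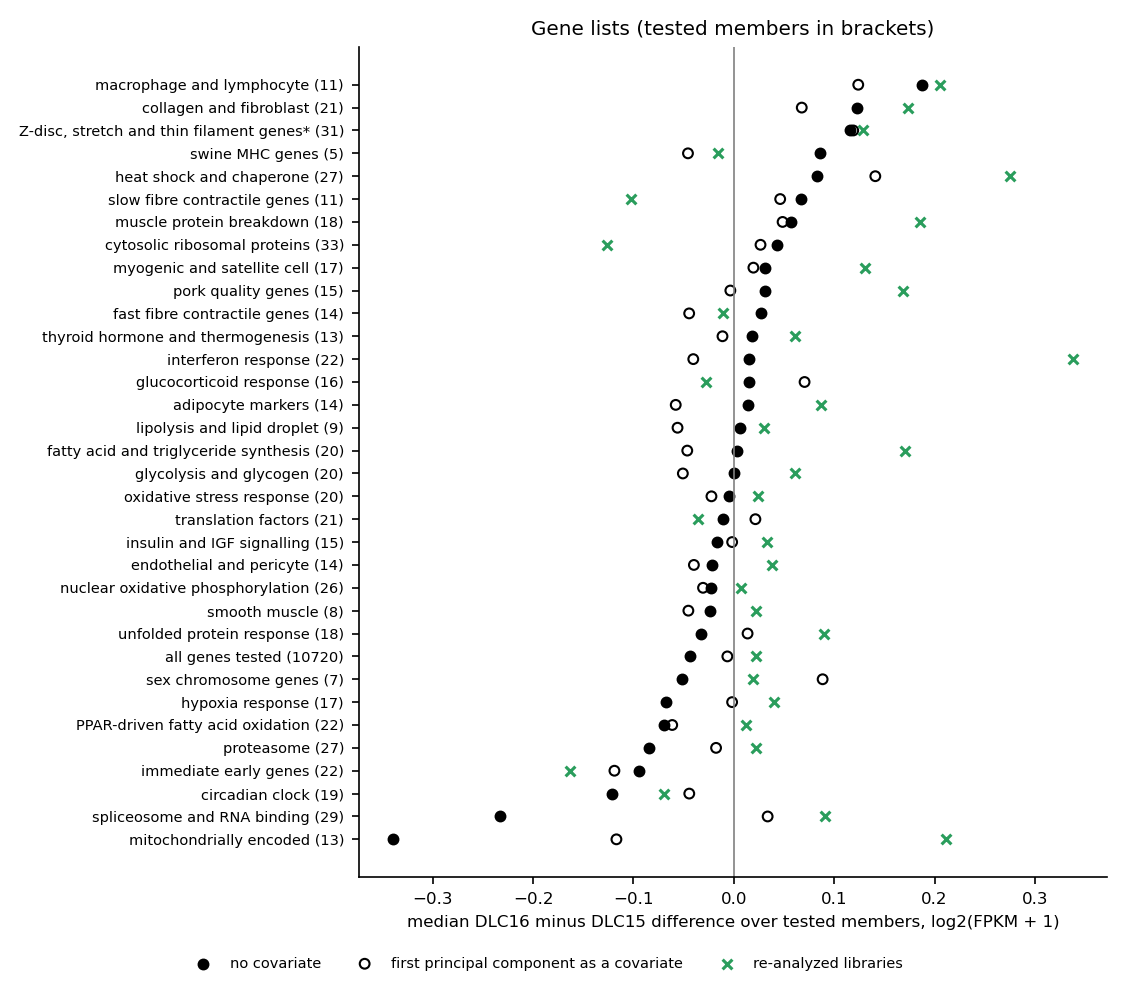
Median DLC16 minus DLC15 difference on the log2(FPKM + 1) scale over the tested members of each list (filled, unmarked libraries; open, the same with the first principal component as a covariate; crosses, re-analyzed libraries; asterisk, list assembled after values were seen). The macrophage, stretch and heat shock lists lie right of 0 in all 3 fits. So do the collagen and fibroblast, the muscle protein breakdown, and the myogenic and satellite cell lists. The mitochondrially encoded list lies at -0.34, -0.12 and 0.21.

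Single genes of other groups were lower. METTL11B, an N-terminal methyltransferase, ran from 5.57 over 13.9 to 43.2 FPKM in DLC15 and from 0.97 over 8.56 to 28.9 FPKM in DLC16, at -0.69 ± 0.13 (SE; limma, adjusted p = 0.0014). TEX9 had medians of 10.7 and 4.44 FPKM, at -0.76 ± 0.18, and shares 3025 bases with MNS1. The Golgi tether GOLGA4 fell by 0.56 and the heat shock factor HSF4 by 0.57. PIK3R1, the regulatory subunit of PI3-kinase, fell by 0.47, the circadian repressor NR1D2 by 0.49 and the clock output factor HLF by 0.22. NR1D2 and HLF were the called members among 19 circadian genes, a share under the 13.4% of all genes called lower. UGP2, which makes the UDP-glucose used for glycogen, fell by 0.33.

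Whether expression followed the title date as a slope or changed at the turn of the year was asked next. On a slope over all 168 libraries, 428 genes rose with the date (3.99%) and 2251 fell (21.0%). With quantile normalization 1520 rose and 1635 fell. Within DLC15 alone limma called 0 of 10782 genes on the date, with 1700 at an unadjusted p under 0.05. Within DLC16 alone it called 0 of 10679 genes, with 571, near the share found where there is no slope. With a slope and a step fitted together, 12 genes (0.112%) had a step at the turn of the year, 7 higher (0.0653%) and 5 lower (0.0466%), and 1118 had an unadjusted p under 0.05. With quantile normalization 10 steps were higher and 2 lower, and without the title code block 25 genes had a step. Date and year are tied by construction in these titles.

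The genes with a called step included RRAS, RPS28, RPL39, RPS15 and RPL35, all with a positive step. CXorf38, SEPHS1, HOXA7 and MANBA had a negative one. A step here is the term fitted beside a slope common to both years, and need not be a lasting change of level. These were named for their step after values were seen where the naming rule did not reach them. RRAS, a small GTPase of the Ras family, had a step of 0.30 ± 0.07 (SE; limma, adjusted p = 0.037). Its medians were 71.1 FPKM to 16 December, 60.8 from 17 to 31 December, 74.7 from 1 to 15 January and 71.5 after that. The first and last periods were thus alike, and the lowest median was that from 17 to 31 December. The ribosomal protein gene RPS28 had a step of 0.47 ± 0.11 (adjusted p = 0.046) and medians of 850, 602, 798 and 653 FPKM over these periods. RPS28 was lower from 17 to 31 December and from 16 January on than in the periods before them, and its plain difference between years did not pass (0.11, adjusted p = 0.28). CXorf38 had a step of -0.38 ± 0.08 (adjusted p = 0.037), with medians of 2.19, 2.13, 1.64 and 1.73 FPKM. The periods hold 26, 32, 78 and 32 libraries.

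The medians of TNFRSF11B and MYLIP differed more between the end of 2015 and the start of 2016 than between the periods within a year. TNFRSF11B had medians of 5.96, 6.77, 4.32 and 4.15 FPKM over the 4 periods, and MYLIP 8.95, 8.83, 6.14 and 5.85 FPKM. KLHL40 had medians of 69.8, 68.5, 104 and 101 FPKM, ACTC1 7.10, 8.13, 12.7 and 13.0 FPKM, and G0S2 21.7, 22.4, 8.82 and 12.0 FPKM. These genes were named for their difference between the title years in the same libraries. A larger gap between the years than within them follows largely from that choice. Their steps did not pass where tested with the slope; that of TNFRSF11B was -0.54 ± 0.16 (limma, adjusted p = 0.13). The share of libraries at the low ND6 level was 26.9%, 40.6%, 57.7% and 59.4% over the same periods, and its part in these differences was not tested beyond the covariate fits above. Between title dates within 15 days of the turn of the year 10 genes were called (0.0933%), 2 higher (0.0187%) and 8 lower (0.0747%), among them TNFRSF11B at -0.55 (adjusted p = 0.049) and G0S2 at -1.12 (adjusted p = 0.050).

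**Figure D4:**
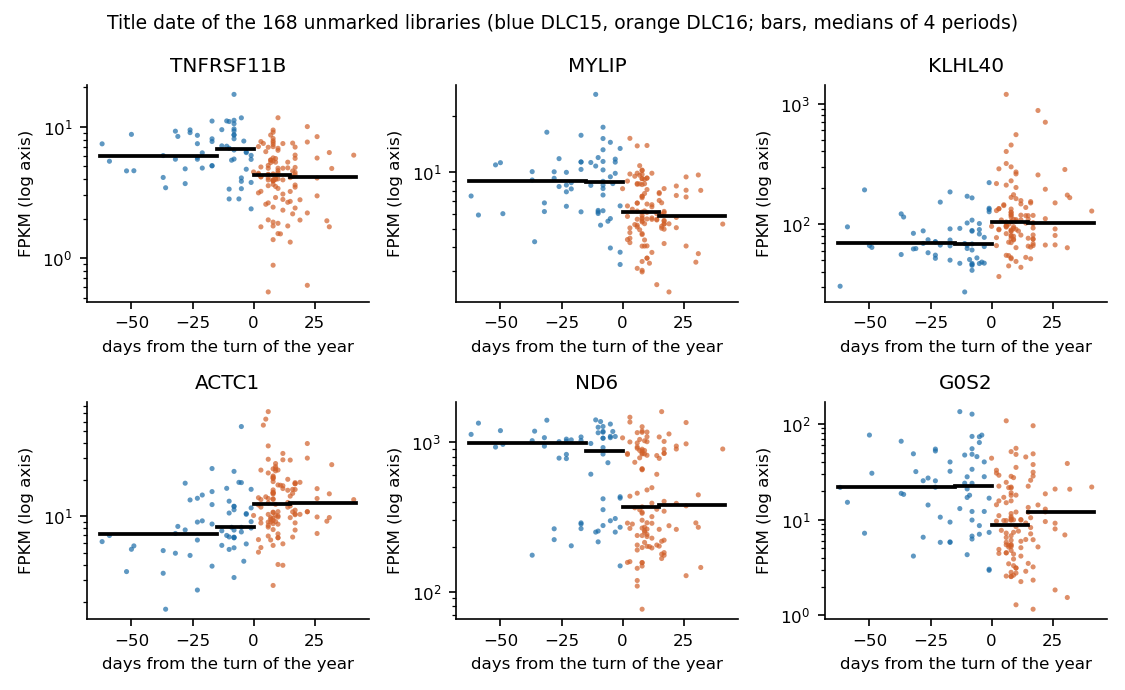
FPKM on log axes of 6 genes by days from the turn of the year, for the 168 unmarked libraries (blue, DLC15; orange, DLC16; bars, medians of the 4 periods). TNFRSF11B and MYLIP are lower and KLHL40 and ACTC1 higher right of 0, while ND6 shows its 2 bands on both sides.

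The 21 re-analyzed libraries allow the same contrast in animals that the rule leaves out, 11 DLC15 and 10 DLC16. Their IMF was spread more widely than that of the unmarked animals. It was 3.57 ± 2.41 (SD) in DLC15, from 0.77 to 6.29, and 3.95 ± 2.24 (SD) in DLC16, from 1.72 to 6.84. Limma called 0 of 10588 genes between them, with 506 at an unadjusted p under 0.05, near the share found where there is no difference. The test of a difference between the marked and unmarked contrasts called 0 genes as well, with 655 at an unadjusted p under 0.05. Of the 183 genes called higher in unmarked libraries and tested here, 130 (71.0%) were also positive in re-analyzed libraries, where 56.5% of all genes positive in unmarked libraries were. Of the 1432 called lower, 653 (45.6%) were also negative, where 44.8% of all negative genes were.

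By list, the chaperones were positive for 22 of 27 members in re-analyzed libraries (median 0.28) and the macrophage genes for 11 of 11 (median 0.21), where 5832 of all genes were positive and 4643 negative. The spliceosome and RNA binding genes were positive for 24 of 29 (median 0.09), against 2 of 29 in unmarked libraries. The mitochondrially encoded genes were positive for 13 of 13 (median 0.21), against 0 of 13 in unmarked libraries, and the mitochondrial share was 6.81 ± 1.42% (SD) in DLC15 and 7.89 ± 2.08% in DLC16 (2-sided permutation test, p = 0.176). The interaction of year and mark on the mitochondrial share was 2.50 percentage points (permutation p = 0.0101, adjusted p = 0.0503 over 5 values). ACTC1 had medians of 6.52 and 9.69 FPKM, TNFRSF11B 8.18 and 6.61 FPKM, and G0S2 52.8 and 40.4 FPKM in re-analyzed DLC15 and DLC16. Their directions were those of the unmarked libraries. ACADM went the other way, with medians of 73.87 and 93.15 FPKM and a difference of 0.18. ACTA1 had 18980 and 19030 FPKM and a difference of -0.03. None of these genes passed.

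**Figure D5:**
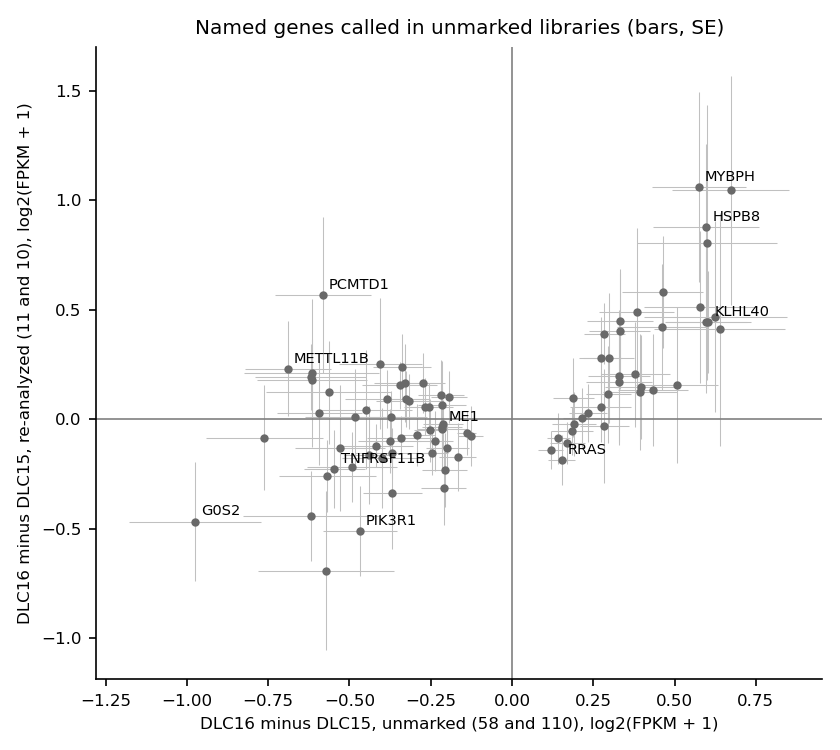
DLC16 minus DLC15 difference of the named genes called in unmarked libraries, in unmarked (horizontal; 58 and 110) against re-analyzed libraries (vertical; 11 and 10), both log2(FPKM + 1), with SE bars. Genes with the largest rises, such as MYBPH, HSPB8 and KLHL40, are above 0 on both axes, while the genes that fell lie on both sides of 0 vertically.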

How the data were processed

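The deposited table holds 18114 transcripts in 189 libraries; the authors' values are read as FPKM from their layout, since the header names no unit. Reads were handled with HISAT2 2.0.5 and StringTie 1.3.3 on Sscrofa11.1, per the submitters' processing notes. Here the FPKM were summed to 12651 genes and log2(FPKM + 1) was taken; genes averaging 0.5 FPKM or more in the fitted libraries entered limma 3.58.1 under R 4.3.3 (trend, title code as a block through duplicateCorrelation, Benjamini-Hochberg adjustment; threshold 0.05). Library values were tested by permutation with 100000 resamples (20000 for the interaction of year and mark). The files give no read depth. The members and gene lists were chosen with earlier results of these data known. Named genes have a mean of at least 1 FPKM and are the 12 largest called differences and 5 smallest p in each direction, up to 4 called members per list (or its most abundant member) and 3 per direction of other comparisons. Named genes outside this rule were chosen after their values were seen. Some called genes are not reported here. The scripts were tested on simulated data. Alternatives are in the closing section.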

Additional observations from a re-analysis of the deposited data

Results flagged for a closer look

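Among the 10 re-analyzed DLC16 libraries, KLHL40 stood at 262.9 FPKM in 1 library, far above the other 9 relative to their spread. In the same group the 10 most abundant genes held 19.98% of summed FPKM in 1 library, far below the rest. Such a gap test marks about 1 in 20 groups by chance, and neither value enters the contrast of unmarked libraries.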

How the results depend on the processing

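No paired analysis was possible because the labels name no replicate, litter or batch, and what the digits of the titles stand for is not stated. Against 1622 genes called between the title years, 589 were called with IMF as a covariate (143 animals), 823 with a mean of at least 5 FPKM required, 394 between titles of December 2015 and January 2016, 823 without the title date that holds most animals, 17 with the share of the 10 most abundant genes, 10 within 15 days of the turn of the year, 2 with the first principal component and 0 with the mitochondrial share as a covariate. Fewer animals or genes enter the IMF, date and filter settings, the filter of 5 FPKM leaving 4806 genes tested. Within 15 days of the turn of the year the differences of the 1622 genes also shrank, to a median ratio of 0.76, and 1 changed sign. What lowered the counts was not tested, for these settings or for the covariates on library values. The slope on title date called 0 genes with the first principal component and 0 with the share of the 10 most abundant genes as a covariate. There limma gave 530 and 1124 genes at an unadjusted p under 0.05, and 530 is near the share found where there is no slope. The step at the turn of the year went from 12 to 25 genes without the code block. The other alternatives kept the count within 1.5 times, though not always the same genes. After the median shift 991 of the 1622 calls were kept, and with quantile normalization 1082. Without library 39 there were 206 higher and 1076 lower. Signs turned for 6 of the 88 named called genes, with the mitochondrial share as a covariate: ATP6 0.11, EGLN1 0.0014, GOLGA4 0.068, ND4 0.0040, PSMC6 0.028 and RPS6KB1 0.031, none called. The covariates on the component and the mitochondrial share, and the joint setting without library 39 and with a median shift (942 higher, 755 lower), were chosen after seeing the data.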

Other observations

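On the title date within DLC16, the collagen genes tested all had positive slopes and the interferon genes tested all had negative ones. All 21 tested members of the collagen and fibroblast list had a positive slope on the title date within the 110 DLC16 libraries, 12 of them at an unadjusted p under 0.05, and 9 of them rose on the slope over all 168 libraries, where 3.99% of all genes did. COL1A1, the main chain of type I collagen, had a slope of 0.25 per 10 days within DLC16 (limma, adjusted p = 0.55), so no single gene passed there. All 22 tested interferon response genes had a negative slope within DLC16, 18 of them at an unadjusted p under 0.05, while 18 of the 22 had a positive slope within DLC15. Over the genes also tested between the years, the slope within DLC16 was positive for 4984 and negative for 5684. Of these 570 had an unadjusted p under 0.05, near the share found where there is no slope. Within DLC15 the slope was positive for 4733 and negative for 5958. IFI6, an interferon-induced mitochondrial protein, had a slope of -0.55 per 10 days (adjusted p = 0.58). Between the title years neither list held a call. A positive difference was found there in 19 of the 21 collagen members (median 0.12) and 13 of the 22 interferon members (median 0.015). Of all 10720 genes 3684 had one.

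The ribosomal protein genes had slopes within each title year and a step between the years of mostly opposite sign. Of 33 tested members, 28 had a negative slope within DLC15, where 5958 of 10691 genes did. Within DLC16 it was 26, where 5684 of 10668 genes did. A positive step at the turn of the year was found in 31, where 4107 of all 10720 genes had one. Of these steps 3 passed, where 0.0653% of all genes had a higher step called. The step was fitted beside a slope common to both years. Negative slopes beside a small difference between years (median 0.04) then give a positive step by arithmetic. The opposite sign is therefore no separate result. Between the years 1 member rose and 1 fell (RPLP1 and RPL7), where 1.74% and 13.4% of all genes did. No slope passed within either year.

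The share of calls by chromosome was compared without a test. Lower calls made up 13.4% of all tested genes, 44.8% of the 29 on the mitochondrial genome, 7.16% of tested genes on chromosome 12 and 23.0% on chromosome 11, with 21.9% on chromosome 8. Higher calls were most frequent on chromosome 2, at 3.2%. Genes called higher had a median longest transcript of 3003 bases and 6 exons, genes called lower 3912 bases and 9 exons, and all tested genes 3619 bases and 9 exons.

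The difference between title years in the slope on IMF was tested as well. Limma called 0 genes, with 188 at an unadjusted p under 0.05.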
